A study of Canis lupus familiaris and Felis catus with 4 samples.

Results

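The 7 mouse mature miRNA entries mmu-miR-486-5p, mmu-miR-486-3p, mmu-miR-3107-5p, mmu-miR-3107-3p, mmu-miR-451a, mmu-miR-144-3p and mmu-miR-144-5p, written below without the species prefix, were followed through small RNA sequencing of urinary exosomes (UExo) from cats and dogs. They were found by name among 2031 mature miRNA entries, of which 275 had a read in at least 1 library. The miR-486 and miR-3107 entries were selected on their read counts in these same libraries, which were higher in kidney disease, so that difference is given as a description. The cluster of miR-144 and miR-451a was set beside them. The study had 4 groups, each sequenced as 1 pooled library: cats with normal renal function (NR, 43 animals), cats with kidney disease (KD, 45), NR dogs (37) and KD dogs (47). The labels used here name no treatment, age, breed or kind of kidney disease. The paper describes age, sex and breed for the cats, and its KD cats were older and lighter on average than its NR cats. Age and KD therefore cannot be told apart in the cat pools. For cats the urine was centrifuged to remove cells and debris before the RNA was taken on a column. Because each group was 1 pool, no test between groups was made, and every interval below is an exact 95% interval that covers counting error only, not differences between animals.

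miRNAs are short RNAs that guide Argonaute proteins to messenger RNAs, mainly through the seed near their 5′ end. miR-144 and miR-451a are made from 1 transcript that the erythroid factor GATA1 switches on, and both accumulate in red blood cells. miR-451a is cut by Argonaute 2 instead of Dicer and yields a single mature strand. miR-486 lies within the gene of ankyrin-1, a protein of the red cell membrane skeleton, and is abundant in both red blood cells and striated muscle.

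The mature sequences are shown because they decide which of these entries a read can tell apart. They are the mouse sequences listed in the deposited table, with bases 2 to 8, the seed, in capitals.
miR-486-5p: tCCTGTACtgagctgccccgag
miR-3107-5p: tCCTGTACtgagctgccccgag
miR-486-3p: cGGGGCAGctcagtacaggat
miR-3107-3p: cGGGGCAGctcagtacagga
miR-451a: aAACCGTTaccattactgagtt
miR-144-3p: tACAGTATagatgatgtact
miR-144-5p: gGATATCAtcatatactgtaagt
miR-486-5p and miR-3107-5p were identical over all 22 bases, and no other entry of the table held this sequence or its seed. miR-486-3p was miR-3107-3p with 1 more base at the 3′ end. miR-3107-3p was in turn the exact reverse complement of the first 20 bases of miR-486-5p, since the 2 hairpins lie on opposite strands of the same locus. On the mouse genome mm10 miR-486-5p (plus strand) is at chr8:23142587-23142608 and miR-3107-5p (minus strand) at chr8:23142627-23142648, with 18 bases between them. The seeds of miR-451a and of both arms of miR-144 were likewise held by no other entry, and that of the 3p arms by miR-326-5p and miR-6954-5p, which had 0 reads. miR-144-3p is at chr11:78073047-78073066 and miR-451a at chr11:78073186-78073207, both on the plus strand and 119 bases apart. In the RefSeq gene table of the dog (assembly UU_Cfam_GSD_1.0), MIR486 has 1 entry and overlaps ANK1, while MIR144 and MIR451 are nearest neighbours. No second dog copy under the name of miR-3107 was looked for, and feline loci were not analysed here.

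The NR and KD libraries held 18704 and 23784 mature miRNA reads in cats and 20878 and 63355 in dogs. A normalized level is the read count multiplied by the factor of its library, which was 1.16, 2.36, 0.689 and 0.531 in the same order. Entries as a whole were shifted between NR and KD on these levels. The median log2 change was -0.68 over 65 entries in cats and 1.04 over 71 entries in dogs, counting entries with at least 20 reads over both libraries and adding 0.5 read to each count. Under 7 ways of scaling the libraries this median lay between -2.05 and -0.15 in cats and between -0.42 and 1.42 in dogs. Reads of both species were placed on mouse miRNAs, so a mature sequence that differs between species could be undercounted.

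UExo-derived miR-486-5p and miR-3107-5p were the members with abundant reads, and both were higher in the KD library of each species. miR-486-5p went from 325 to 1212 reads between the NR and KD pools of cats and from 142 to 2564 between those of dogs. miR-3107-5p went from 257 to 1812 and from 153 to 3674. Since these entries share the same mature sequence, they were summed and are called the pair below. The NR and KD libraries had 582 and 3024 reads of the pair in cats and 295 and 6238 in dogs. Both KD libraries were above both NR libraries, also as shares of the mature miRNA reads. The share was 1.41% for NR dogs (95% exact binomial interval 1.26 to 1.58%), 3.11% for NR cats (2.87 to 3.37%), 9.85% for KD dogs (9.62 to 10.1%) and 12.7% for KD cats (12.3 to 13.1%). The intervals of neighbours in this order did not overlap. They cover counting error only, and the pair was selected on these counts, so this is no test of KD against NR. miR-3107-5p moved from rank 13 among the entries of the library to rank 3 in both species. miR-486-5p moved from rank 12 to rank 4 in cats and from rank 15 to rank 4 in dogs. In the study's PCR of individual cats the raw level of miR-486a tended to be lower in KD. That level, unlike a share of reads, is not relative to other miRNAs. The raw levels of all the miRNAs examined there tended to be lower in KD, except miR-21a. No significant change of miR-486a was reported. Its ratio to miR-22, which was itself lower in KD, correlated positively with blood urea nitrogen over all cats. The authors considered the pooling of samples for sequencing to explain such differences between the methods.

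**Figure D1:**
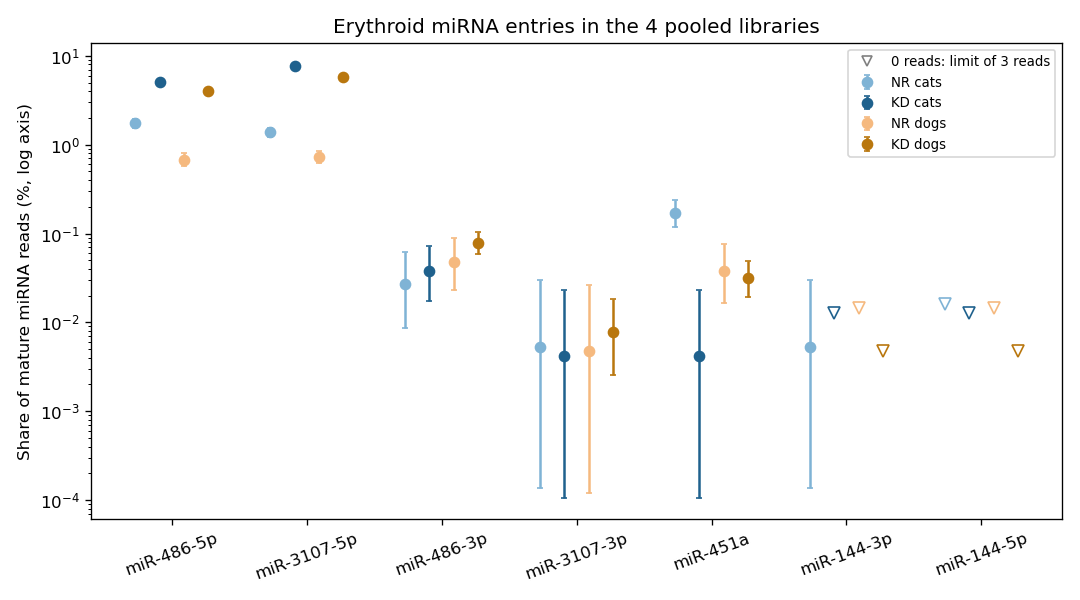
Share of the mature miRNA reads (%, log axis) held by each of the 7 entries in the 4 pooled libraries, with exact 95% binomial intervals of counting error as bars and open triangles at the share of 3 reads where an entry had 0 reads. The miR-486-5p and miR-3107-5p points lie between 0.680% and 7.62%, whereas miR-451a is at most 0.171% and miR-144-5p had no read.

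On the normalized values the pair differed between KD and NR by a log2 of 3.40 in cats (3.27 to 3.53) and 4.03 in dogs (3.86 to 4.20). Relative to the median of all entries this was 4.08 in cats and 2.99 in dogs. Among the 65 cat entries miR-3107-5p had the highest change and miR-486-5p ranked 3, behind miR-130a-3p with 4 and 17 reads. Among the 71 dog entries they ranked 1 and 2, and these ranks do not depend on how libraries are scaled. The study required a read number over 150 on the higher side, a change over 2-fold and expression in the kidney. The folds it listed for cats were ratios of its read numbers with no scaling. Here the limits on number and change were put on the normalized values, and kidney expression was not required. In cats 2 of the 7 members were over 150. Both were called higher and 0 lower, where 17.4% and 30.4% of the 23 entries over 150, these 2 included, were. In dogs 2 of the 7 were again over 150, with both called higher and 0 lower, where 43.8% and 0% of 16 entries were. On read counts with no scaling 2 of the 7 were over 150 in each species, both called higher and 0 lower. By that measure 13.6% of 22 entries were higher and 63.6% lower in cats, and 91.3% of 23 higher and 0% lower in dogs. Both called members belong to the pair, and the members were chosen with these changes known, so the counts add nothing to the values. The pair was higher in KD by over 2-fold under each of the 7 scalings, from 2.03 to 3.93 in cats and from 2.56 to 4.40 in dogs. Whether its change was larger in dogs or in cats turned with the scaling: dogs were ahead by 0.62 on the normalized values, and were ahead under 3 scalings and behind under 4.

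**Figure D2:**
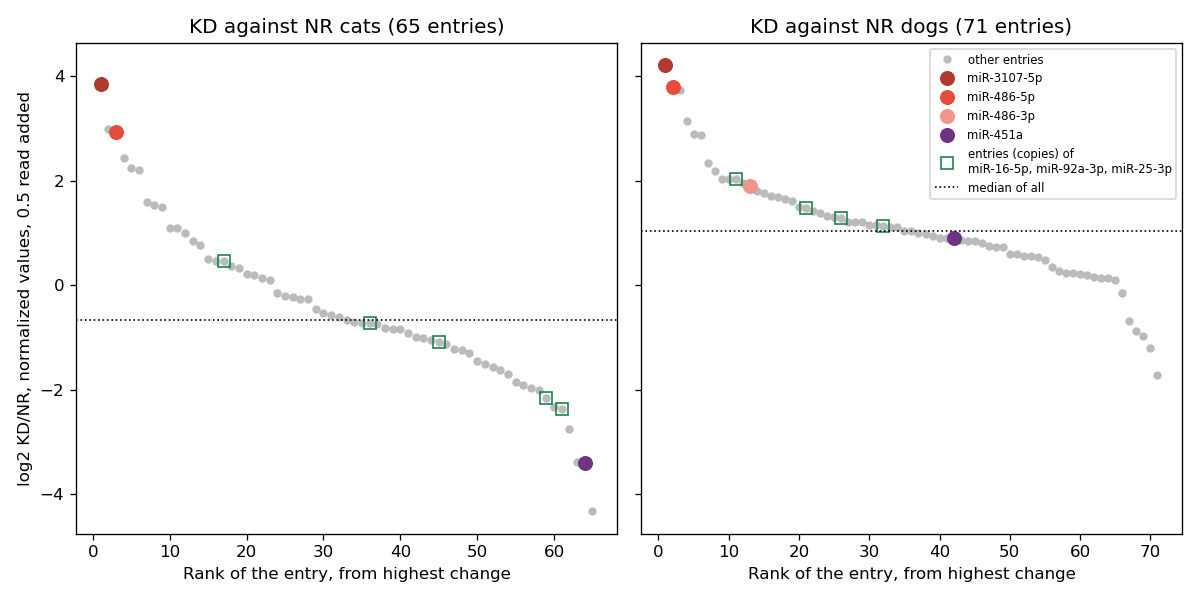
Change between KD and NR (log2 of normalized values with 0.5 read added) of every entry with at least 20 reads over both libraries of a species, ordered from highest to lowest, with 65 entries in cats and 71 in dogs; green squares mark the entries of miR-16-5p, miR-92a-3p and miR-25-3p, with an entry for each genomic copy, and the dotted line is the median. miR-3107-5p and miR-486-5p stand at ranks 1 and 3 in cats and 1 and 2 in dogs, while miR-451a is the second lowest in cats and at rank 42 in dogs.

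The split of the reads between the identical copies was not even and was not the same in all libraries. In dogs miR-3107-5p took 51.9% (46.0 to 57.7%) of the NR reads and 58.9% (57.7 to 60.1%) of the KD reads of the pair. In cats the values were 44.2% (40.1 to 48.3%) and 59.9% (58.1 to 61.7%). The KD libraries of both species lay close together with the NR libraries below them, although the NR and KD intervals of dogs met at 57.7%. How reads with several locations were shared out is not given in the sources used here, so the separate values of the copies are uncertain. If a read was counted at each place, the reads, shares and ratios of the pair are up to 2 times too high and their intervals too narrow. Copies of other miRNAs were split evenly in some cases and unevenly in others. Those of miR-26a-5p had 167 and 171 reads in NR cats and 51 each in KD cats. In dogs they had 209 and 201 in NR and 489 each in KD. The copies of miR-16-5p had 114 and 26 reads in NR cats and 12 and 2 in KD cats. An uneven split is therefore not particular to the pair. The direction of the change does not depend on the sum: miR-486-5p alone had a log2 change of 2.92 in cats and 3.80 in dogs, and miR-3107-5p alone one of 3.84 and 4.21.

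The 3p arms of the pair were rare. The NR and KD libraries had 5 and 9 reads of miR-486-3p in cats and 10 and 50 in dogs. miR-3107-3p had 1 read in each library but KD dogs, which had 5. Reads of 3p arms made up 3.59% (1.81 to 6.34%) of all reads of the locus in NR dogs and 0.874% (0.659 to 1.14%) in KD dogs. The share was 1.02% (0.375 to 2.21%) for NR cats and 0.330% (0.158 to 0.605%) for KD cats. On the normalized values miR-486-3p differed by a log2 of 1.87 in cats (0.14 to 3.80) and 1.95 in dogs (0.95 to 3.09), and it was higher in KD under all 7 scalings, by over 2-fold under 5 in cats and 4 in dogs, although the interval included 0 under 3 of the 7 in each species. The number of 5p reads per 3p read went from 97 to 302 in cats, 3.12-fold (0.927 to 9.51), an interval that includes no change. In dogs it went from 26.8 to 113, which is 4.23-fold (1.97 to 8.27). This ratio is taken within a library and does not depend on scaling.

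The cluster of miR-144 and miR-451a had few reads, between 1 and 33 in a library, nearly all of them miR-451a. miR-451a, which in red blood cells represses the 14-3-3 protein gene Ywhaz, went from 32 reads to 1 between the NR and KD pools of cats and from 8 to 20 between those of dogs. miR-144-3p, known as a repressor of the antioxidant factor Nrf2, had 1 read in NR cats and 0 in the other 3 libraries. miR-144-5p, and miR-451b on the opposite strand of the same locus, had 0 reads throughout. A count of 0 allows a share of up to 0.0160% and 0.0126% in the NR and KD libraries of cats and 0.0144% and 0.00474% in those of dogs, the share of 3 reads. NR cats thus held the most miR-451a. KD cats had the lowest value, but on 1 read, with a share interval of 0.000106 to 0.0234%. That interval overlapped those of NR dogs (0.0165 to 0.0755%) and KD dogs (0.0193 to 0.0488%). Of the red blood cell markers set out for these samples (miR-451a, both arms of miR-144, miR-486-5p), miR-486-5p alone had over 32 reads in any library. The name erythroid thus rests on what is known of these miRNAs and not on joint abundance here.

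In cats the cluster went from 33 reads to 1, a log2 change of -4.02 on the normalized values (-9.37 to -1.44), and -3.34 relative to the median of all entries. It was lower by over 2-fold under all 7 scalings, from -5.39 to -3.49. miR-451a ranked second from the lowest of the 65 cat entries. At least 20 reads over both cat libraries were present for 3 members, of which miR-451a was lower by over 2-fold and the pair higher, where 36.9% of the 65 entries were lower and 16.9% higher. In dogs the cluster had 8 and 20 reads, a log2 change of 0.95 (-0.30 to 2.34), and -0.09 relative to the median. Its direction in dogs turned with the scaling, being higher under 4 and lower under 3, with an interval that includes 0 under 6 of the 7. Of the 4 dog members with at least 20 reads, the pair and miR-486-3p were higher by over 2-fold and 0 were lower, as 52.1% and 2.82% of the 71 entries were.

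The pair and the cluster were then compared within each library, a ratio that no scaling can move. There were 17.6 reads of the pair per read of the cluster in NR cats (12.4 to 25.9), 36.9 in NR dogs (18.5 to 86.2), 312 in KD dogs (202 to 511) and 3024 in KD cats (542 to 119481). The pair exceeded the cluster in all 4 libraries, and by more in KD than in NR within each species. The ratio in KD was 171 times that in NR for cats (28.5 to 6977) and 8.46 times for dogs (3.19 to 20.2). The width in cats comes from the single miR-451a read in KD, and with 0.5 read added to each sum the log2 change was 6.86 instead of 7.42. In NR the ratio intervals of cats and dogs overlapped, whereas in KD that of cats lay above that of dogs.

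**Figure D3:**
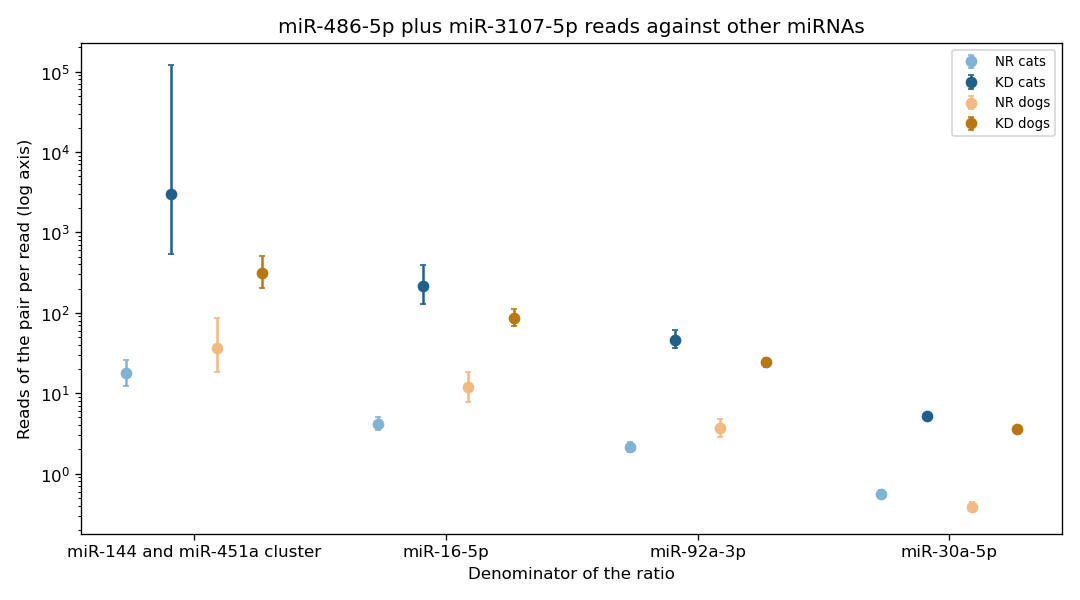
Reads of the pair (miR-486-5p plus miR-3107-5p) per read of the cluster of miR-144 and miR-451a, of miR-16-5p, miR-92a-3p or miR-30a-5p in each pooled library (log axis), with exact 95% intervals of counting error as bars. In each species the KD library lies above the NR library for all 4 denominators, from 17.6 to 3024 in cats and from 36.9 to 312 in dogs against the cluster.

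Other miRNAs known from red blood cells had lower or similar levels in KD cats, unlike the pair. Of 8 entries on that list (miR-16-5p and miR-92a-3p with 2 genomic copies each, miR-15b-5p, miR-25-3p, miR-185-5p and miR-363-3p), 5 had at least 20 reads over both cat libraries. Of these, 0 were higher and 3 lower by over 2-fold, where 16.9% and 36.9% of the 65 entries were, with a median change of -1.10 in log2, against -0.68 over all entries. The 3 lower entries were both copies of miR-16-5p and 1 of miR-92a-3p, so they are not separate miRNAs. Summed over the list, reads went from 444 to 97 in cats, a log2 change of -1.17 (-1.5 to -0.85), which was negative under all 7 scalings. miR-25-3p, from the Mcm7 intron cluster, had 27 and 18 reads and a log2 change of 0.44 (-0.51 to 1.35). In dogs 4 entries had at least 20 reads, both copies of miR-92a-3p, 1 of miR-16-5p, and miR-25-3p. All 4 were higher by over 2-fold, as 52.1% of the 71 entries were, with a median of 1.37 against 1.04 over all entries. The list as a whole went from 108 to 352 reads in dogs, a log2 change of 1.33 (1.01 to 1.65). That change was positive under 6 scalings and -0.14 under the other one.

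The ratio of the pair to these miRNAs was higher in KD in both species. For miR-16-5p, an abundant miRNA of red blood cells that represses cell cycle genes, it was 11.8 and 86.6 in NR and KD dogs, and 4.16 and 216 in NR and KD cats. The KD ratio was 52.0 times the NR ratio in cats (29.6 to 98.1) and 7.34 times in dogs (4.39 to 11.9). Against miR-92a-3p, made from a cluster that drives cell growth, the ratio was 21.8 times higher in cats (16.3 to 29.5) and 6.58 times in dogs (4.92 to 8.73). The miR-451a reads per miR-16-5p read, in contrast, were 0.320 and 0.278 in NR and KD dogs, and 0.229 (0.151 to 0.338) and 0.0714 (0.00169 to 0.469) in NR and KD cats. The change of that ratio was 0.313-fold in cats (0.00717 to 2.21) and 0.868-fold in dogs (0.316 to 2.58), so no change of it between NR and KD was detectable at this depth.

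miR-451a is often set against miR-23a-3p, a miRNA that changes little when red cells lyse, as a measure of haemolysis. There were 3.20 reads of miR-451a per miR-23a-3p read in NR cats (1.53 to 7.30), 1.00 in NR dogs (0.327 to 3.06) and 2.86 in KD dogs (1.16 to 8.0). KD cats had 1 read of miR-451a and 0 of miR-23a-3p, which gives no ratio. In dogs the KD ratio was 2.86 times the NR ratio, with an interval from 0.642 to 12.8.

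Markers of other cells that could carry miR-486 or lie in urine were read in the same libraries. The muscle list (miR-1a-3p, miR-133a-3p, miR-133b-3p, miR-206-3p, miR-208a-3p, miR-208b-3p and miR-499-5p, 9 entries) had 1 read in NR cats, 1 in NR dogs and 0 in both KD libraries, with miR-1a-3p and miR-206-3p at 0 throughout. The white blood cell list (miR-142-5p, miR-142-3p, miR-223-3p, miR-150-5p and miR-155-5p) held 2.41% and 0.265% of the mature reads in the NR and KD libraries of cats and 0.0287% and 0.194% in those of dogs. Most of these reads were miR-142-5p, with 415, 62, 6 and 112 reads, and miR-142-3p, miR-223-3p and miR-155-5p were at 0 in KD cats. The white cell sum thus moved opposite to the pair in cats, at a log2 of -1.81 (-2.22 to -1.43), and with it in dogs, at 3.98 (2.82 to 5.46), both under all 7 scalings. The platelet and endothelial entries miR-126a-5p and miR-126a-3p had 6, 1, 1 and 3 reads in the order NR cats, KD cats, NR dogs, KD dogs. The part of white blood cells or platelets in the level of the pair was not tested. More exosomes from a cell type and more of a miRNA per exosome cannot be told apart in pooled urine.

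Kidney tubule miRNAs gave a further reference within each library. The 5 entries of that list (miR-30a-5p, miR-192-5p, miR-204-5p and 2 copies of miR-194-5p) went from 1164 to 612 reads between the NR and KD pools of cats and from 1093 to 2550 between those of dogs. Their sum differed on the normalized values by a log2 of 0.10 in cats (-0.05 to 0.24) and 0.85 in dogs (0.74 to 0.95), with a direction that turned under 3 scalings in each species. Within the list, miR-204-5p with 53 and 8 reads in cats was lower by over 2-fold, at -1.70 (-2.99 to -0.62). For each read of miR-30a-5p there were 0.563 (0.508 to 0.624) and 5.17 (4.73 to 5.66) reads of the pair in NR and KD cats. In dogs there were 0.390 (0.340 to 0.447) and 3.57 (3.38 to 3.76). Against miR-30a-5p, the most abundant miRNA of the list, the pair was thus 9.18 times higher in KD cats (8.01 to 10.5) and 9.14 times in KD dogs (7.89 to 10.6). Against miR-192-5p the factor was 19.1 in cats (11.3 to 33.9) and 8.72 in dogs (7.27 to 10.5), and against miR-10b-5p, the most abundant entry, it was 2.31 (2.10 to 2.54) and 7.53 (6.69 to 8.51). The order of the species therefore depended on the miRNA used as reference.

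**Figure D4:**
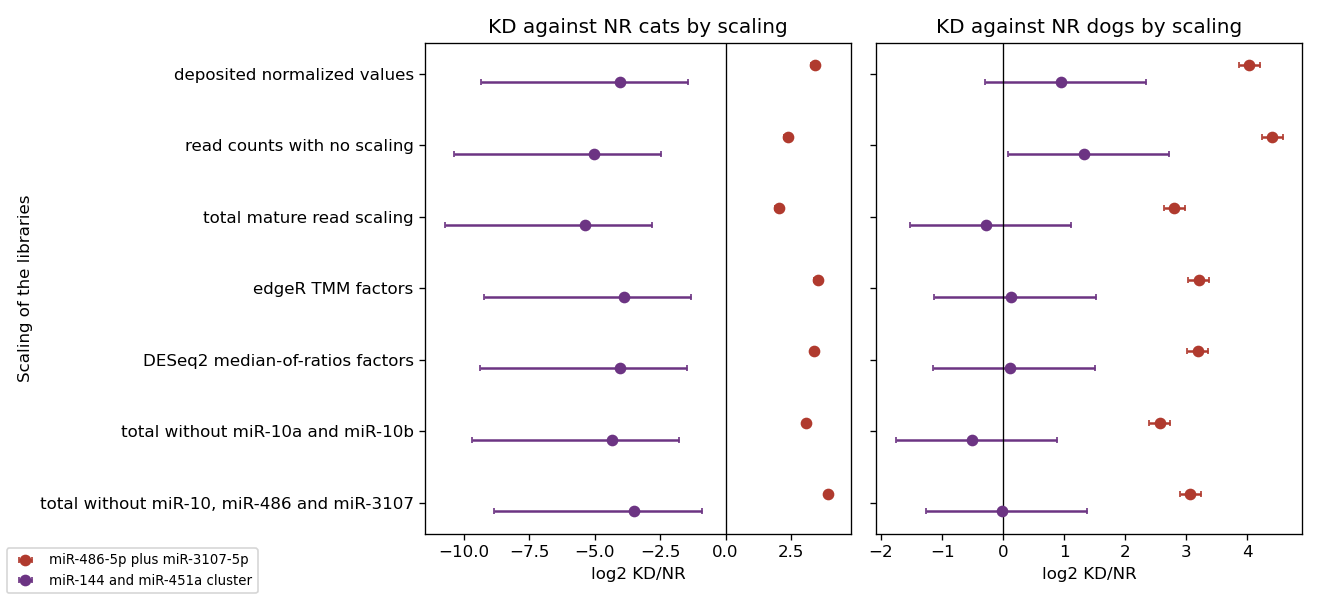
Change between KD and NR (log2) of the pair and of the cluster of miR-144 and miR-451a in cats and dogs under 7 ways of scaling the libraries, with exact 95% intervals of counting error as bars. The pair lies between 2.03 and 4.40 throughout, and the cluster lies between -5.39 and -3.49 in cats and between -0.52 and 1.32 in dogs.

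Between species, the level of the pair was higher in cats on the normalized values, 3.31-fold in NR (log2 1.73, 1.52 to 1.94) and 2.15-fold in KD (1.11, 1.04 to 1.17). With total read scaling the folds were 2.20 and 1.29. On read counts with no scaling the pair was 1.97-fold higher in NR cats, but in KD the direction turned to 0.485-fold (log2 -1.04, -1.11 to -0.98). When libraries were scaled by their reads other than those of miR-10, of miR-486 and of miR-3107, NR cats and NR dogs were at 0.997-fold, a log2 interval from -0.21 to 0.20, and KD cats were at 1.82-fold. miR-451a was 6.72-fold higher in NR cats than in NR dogs on the normalized values (log2 interval 1.60 to 4.08). With miR-10, miR-486 and miR-3107 left out of the totals this fell to 2.02-fold, with a log2 interval from -0.13 to 2.34 that includes no difference. In KD miR-451a had a log2 of -2.17 on the normalized values, with an interval of -7.55 to 0.47. A difference between species in level and one in how well reads fit mouse sequences cannot be told apart here.

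Entries with the most similar pattern over the 4 libraries were sought among the 43 non-members with at least 100 reads in all, by the distance between log2 (normalized level + 1) values after each was centred on its own mean. For the pair these were miR-203-3p, a miRNA of stratified epithelium (distance 2.16), miR-182-5p (2.23) and miR-10b-5p (2.43). miR-203-3p had normalized levels of 35.9 for NR cats, 101 for KD cats, 8.27 for NR dogs and 29.7 for KD dogs, so that its KD to NR differences had the direction of the pair but a smaller size. For the cluster they were let-7i-5p (0.837), miR-204-5p (1.45) and miR-22-3p (1.49). let-7i-5p had 74, 3, 10 and 29 reads in the order NR cats, KD cats, NR dogs, KD dogs, close in shape to the 33, 1, 8 and 20 of the cluster. Each likeness rests on 4 points.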

How the data were processed

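Each group was measured as 1 pool of urinary exosome RNA. The authors trimmed adaptors, aligned reads to mouse mm10 with Bowtie 1.0.0 so that a read could take several places, and used StrandNGS to count reads per small RNA of the mouse. CASAVA 1.8.2 is also named in the submitters' processing notes. The deposited table holds the authors' raw read counts and deposited log2 values normalized by TMM, which are the log2 count shifted by 1 constant in each library. Results below 0 are written there as 0 for 47 entries in the NR and 31 in the KD library of dogs, so levels were computed as count times factor. The table also has 4 blank lines, not used here.

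Ratios of counts carry exact conditional (Clopper-Pearson) 95% intervals, shares exact binomial ones, and changes of a ratio exact conditional odds ratio intervals. These are intervals of counting error. For a count of 0 the limit used was 3 counts. No test between groups was run. The intervals were run on simulated Poisson counts, the model they are derived from, so this checks the computation and not the model. For the ratio of pair to cluster, draws without a read of the cluster in a library were left out. Scalings were the deposited factors, none, total mature reads, edgeR 4.0.16 TMM, DESeq2 1.42.0 median of ratios, and totals without miR-10a and miR-10b or also without miR-486 and miR-3107. On these alternatives the value of 150 was put on read counts. Other minimum values (50, 300) and folds (1.5, 3) were tried. The members and the lists of marker miRNAs were chosen with earlier results of these data known. Named miRNAs were the 7 members, list entries reaching 50 reads in some library, and the 3 entries nearest in pattern to the pair and to the cluster. Other entries (miR-130a-3p, miR-25-3p and list entries with few reads) were named after their values were seen. Computation used R 4.3.3 and Python 3.11.15 with scipy 1.17.1 and numpy 2.4.6.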

Additional observations from a re-analysis of the deposited data

Results flagged for a closer look

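On the normalized values the cluster of miR-144 and miR-451a had a lower level in KD cats and a higher one in KD dogs. The log2 change in dogs was 0.95, with an interval (-0.30 to 2.34) that includes 0. Relative to the median of all entries (-0.68 in cats and 1.04 in dogs) the change was -3.34 in cats and -0.09 in dogs. The dog minus cat difference in log2 change on the normalized values, which includes that shift of all entries, was 4.96 for the cluster. It was 4.92 for miR-451a, which supplies all but 1 of the cluster's reads. The difference was not tested, since each group is 1 library. It was positive under all 7 scalings, from 3.48 to 6.37 for the cluster, but the direction in dogs itself turned under 3 of them. It rests on 33 and 1 reads in cats and 8 and 20 reads in dogs.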

How the results depend on the processing

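The pair was higher and, in cats, the cluster lower under every alternative run. For the pair in cats the log2 change was 2.38 on read counts, 2.03 with total read scaling, 3.08 with a total that leaves out miR-10a and miR-10b, 3.93 also without miR-486 and miR-3107, 2.92 for miR-486-5p alone and 3.84 for miR-3107-5p alone. In dogs it was 4.40, 2.80, 2.56, 3.07, 3.80 and 4.21 in the same order, 3.20 with edgeR and 3.18 with DESeq2. For the cluster in dogs the direction reversed to -0.28 with total read scaling, -0.52 with a total that leaves out miR-10a and miR-10b and -0.014 also without miR-486 and miR-3107. These shifts between scalings lie in the library factors, since the counts are the same. The change of the ratio of pair to cluster stayed within its interval in all 4 alternatives of each species, and the number of members past the fold criterion was 2 in each species under all 8. The miR-144 arms alone gave no value, with at most 1 read. No paired analysis was possible because each group is 1 pooled library without replicate numbers. Depth limits the cluster, where 1 read decides the size of the change in cats.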

Other observations

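The mature sequences of the pair are rich in G and C (63.6%) and those of the cluster poor (36.4% in miR-451a, 30.0% in miR-144-3p), against a median of 45.5% over the 275 entries with a read. Across entries, Spearman's rho between this share and the change from NR to KD was 0.339 over 65 entries in cats and 0.264 over the 62 that are not members, and 0.101 over 71 and -0.01 over 67 in dogs. Entries within a library share its depth and preparation, so no p-value is given. Entries within 3 percentage points of the pair differed among themselves in cats: miR-423-3p had 34 and 2 reads, miR-99b-5p 22 and 23, and miR-298-5p 7 and 17. The part of base composition in the levels was not tested.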
